A study of Homo sapiens with 21 samples.

Results

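In A375, a human melanoma cell line, 9446 open chromatin regions carried histone H3 lysine 27 acetylation (K27ac) in the control hairpin libraries, lacked a K27ac region in the libraries of both hairpins of the HOXD13 silencing series (shH2 and shH3), and did not overlap a tagged HOXD13 region. They were chosen from 65337 merged regions listed in both A375-shNTC K27ac libraries. Of these, 24220 (37.1%) overlapped no region of the shH2 or shH3 K27ac list by 1 bp or more and are called lost. Open means overlap with a region of the A375-GFP ATAC list, and unbound means no overlap with the A375-HOXD13-HA list. Openness in the shNTC, shH2 and shH3 cells was not measured, so lost refers to the K27ac call and not to open chromatin. Among the 41637 open unbound regions, 9446 (22.7%) were lost and 32191 were kept in at least 1 hairpin list. Both percentages are set by the selection itself, and nothing is read from them. The lists of all 15 libraries together held 1120474 regions on the autosomes and X.

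The study mapped chromatin in 4 melanoma lines (A375, 501mel, SKMEL-5 and SKMEL-147) under HOXD13 silencing or overexpression. A375 cells carried the hairpins shNTC, read as the non-targeting control (2 K27ac libraries), shH2 (1) or shH3 (1), a GFP construct (1 K27ac and 1 ATAC library), or HA-tagged HOXD13 (1 HA library). 501mel, SKMEL-5 and SKMEL-147 each had 1 K27ac and 1 ATAC library, and 501mel and SKMEL-5 each had 1 CTCF library. All cells were cultured for 72 h with or without 1 µg/ml doxycycline to induce the constructs. The labels name no hairpin target, do not say which samples received doxycycline, and do not tell ChIP-seq from CUT&Tag libraries. HOXD13-HA is an overexpressed protein, so a region without it has no call for the tagged protein, and binding of the cells' own HOXD13 was not measured. The region names of the 501mel ATAC list contain siNTC, a term absent from its label.

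Acetylation of H3 at lysine 27 is laid down by p300 and CBP at active promoters and enhancers and is removed by histone deacetylases, and it lies on the nucleosomes flanking the open DNA where transcription factors sit. HOXD13 is a posterior homeobox factor known from patterning of the digits. Chromatin can stay open without the mark, for instance at CTCF sites, where the protein organises loops between distant DNA.

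Promoters of 4 of the strongest lost regions that covered a start in the RefSeq promoter table are given first, because they show that the set holds starts of contrasting base composition. Each is the 250 bases before the start in RefSeq (GRCh38.p14, the hg38 assembly), written 5′ to 3′ on the strand of the gene, with every CpG dinucleotide in capitals. ZNF784 encodes a zinc finger protein (minus strand, chr19:55624567-55624816), IRF9 the DNA-binding part of the interferon-stimulated complex ISGF3 (plus strand, chr14:24161015-24161264), SMARCAL1 an enzyme that rewinds DNA at stalled replication forks (plus strand, chr2:216412234-216412483), and SNX15 a sorting nexin of endosomes (plus strand, chr11:65027189-65027438).
ZNF784: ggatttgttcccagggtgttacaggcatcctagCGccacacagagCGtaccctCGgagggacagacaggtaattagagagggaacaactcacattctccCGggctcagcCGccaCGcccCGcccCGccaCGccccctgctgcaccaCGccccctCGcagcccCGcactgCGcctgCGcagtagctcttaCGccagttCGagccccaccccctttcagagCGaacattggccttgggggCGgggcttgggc
IRF9: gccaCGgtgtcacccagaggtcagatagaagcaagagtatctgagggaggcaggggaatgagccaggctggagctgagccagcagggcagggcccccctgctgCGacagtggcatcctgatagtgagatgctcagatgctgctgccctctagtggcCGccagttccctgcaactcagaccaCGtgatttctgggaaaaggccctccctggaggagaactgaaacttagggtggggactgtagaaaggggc
SMARCAL1: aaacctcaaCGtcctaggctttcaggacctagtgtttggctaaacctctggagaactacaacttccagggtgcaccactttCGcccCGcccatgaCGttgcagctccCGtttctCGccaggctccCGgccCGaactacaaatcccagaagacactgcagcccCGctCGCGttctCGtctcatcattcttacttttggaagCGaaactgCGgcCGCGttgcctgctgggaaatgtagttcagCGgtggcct
SNX15: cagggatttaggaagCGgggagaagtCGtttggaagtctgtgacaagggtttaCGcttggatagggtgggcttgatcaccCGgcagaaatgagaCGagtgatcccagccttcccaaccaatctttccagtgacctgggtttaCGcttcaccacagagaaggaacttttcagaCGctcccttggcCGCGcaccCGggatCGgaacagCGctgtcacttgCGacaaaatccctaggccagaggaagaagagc
All 250 bases printed for SMARCAL1 and SNX15 lie inside the lost region, but only the last 10 of IRF9 and 36 of ZNF784 do, so these 2 stretches mostly show sequence beside the region that covers the start. The stretches hold 18 CpG in ZNF784, 4 in IRF9, 17 in SMARCAL1 and 13 in SNX15. IRF9 is the CpG-poor member of the 4, and it alone matched a searched motif, GGAATG, the core recognised by TEAD factors, in the part outside its lost region.

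The lost open regions were weak and narrow in the control libraries that chose them. The fold enrichment and the −log10 q-value of a region are the authors' own, and they are used to describe, order or threshold the regions of 1 list and never to compare lists. A region takes the highest value among the regions of a list that overlap it by 1 bp or more. The peak behind that value can lie outside the region, and 2 regions can share it. The median fold of the lost open regions was 4.59 in replicate 1 of shNTC (quartiles 3.90 and 5.55) and 4.46 in replicate 2 (3.79 and 5.33), against 8.10 and 7.70 for the kept open unbound regions. Strength below means the lower of the 2 replicates' −log10 q. Its median was 4.33 over the lost regions (quartiles 3.36 and 6.63, highest 115) and 14.0 over the kept ones. Median widths were 741 bp and 1568 bp, and the lost regions covered 8.25 Mb in all. When all regions were placed in 10 classes cut at the deciles of the lost regions' strength, 62.1% of the weakest class and 4.81% of the strongest class had been lost. The hairpin lists were shorter than the control lists. On the autosomes and X, shNTC held 85977 and 80242 K27ac regions, shH2 43634 and shH3 51838. The number of lost regions moved with the length of the lists. With the shNTC and hairpin K27ac lists each cut to their 43634 strongest regions, it was 3716 of 28974 open unbound regions (12.8%). This step shortens the control lists as well. With shH2 as the only hairpin the number of lost regions was 16914. Of the kept regions, 69.2% were in both hairpin lists, 23.2% in shH3 alone and 7.57% in shH2 alone. The depth of the libraries is unknown, since the lists hold no read counts, and absence from a list does not show absence of signal. Just outside the selection, 38 regions overlapped a hairpin region by at most 50 bp (median strength 3.52). Just inside it, 24 had a hairpin region less than 50 bp away (median 3.56).

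Many lost regions lay within 10 kb of a K27ac region that a hairpin list held, though no background share was computed for these distances. The nearest shH2 or shH3 K27ac region was a median of 12228 bp away, it was within 2 kb for 16.6% and within 10 kb for 45.0%, and it was more than 50 kb away for 16.3%. The lost regions that were not open lay closer, at a median of 5324 bp, and the 844 lost open regions that did overlap HOXD13-HA lay at 15098 bp. Of the lost open unbound regions, 3779 (40.0%) had a kept region as both neighbours in the order of control K27ac regions along the chromosome. Of all 65337 control regions, 24220 (37.1%) were lost, so a region of any kind often has kept neighbours. The share for other regions was not computed, and nothing is read from the 40.0%. The nearest HOXD13-HA region was a median of 33960 bp away, against 31677 bp for the kept open unbound regions, and within 10 kb for 20.6% and 22.1% of them.

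**Figure D1:**
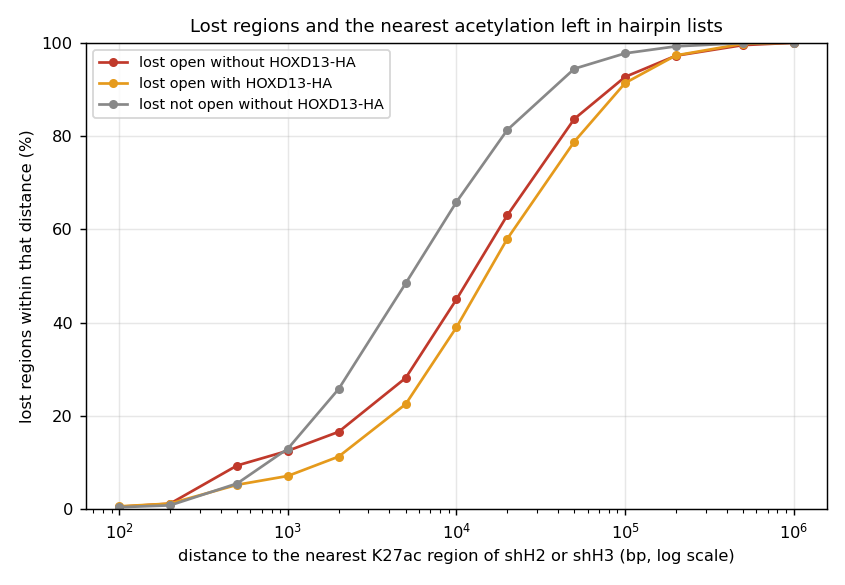
Share of lost control K27ac regions (vertical axis, percent) that lie within a given distance (horizontal axis, bp, log scale) of the nearest K27ac region in either hairpin library, for 3 kinds of lost region. At 10000 bp the share is 45.0% for open regions without HOXD13-HA, 39.0% for open regions with it and 65.9% for regions that were not open without it.

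The lost open regions were mostly distal. Their midpoint lay within 2 kb of a protein-coding gene start for 1422 of them, or 15.1% (95% Wilson interval 14.3 to 15.8), against 27.5% (27.05 to 28.02) of the kept regions. These intervals, here and below, cover counting error only and treat regions as independent. A further 45.0% (44.0 to 46.0) lay inside a gene away from any start and 40.0% (39.0 to 41.0) between genes, compared with 38.5% and 34.0% of the kept regions. A gene start fell inside 247 lost regions, or 2.61%, and inside 13.8% of the kept ones. The median distance to the nearest start was 32119 bp, against 22154 bp. At like strength, averaging the difference over the 10 strength classes with the lost regions as weights, the share near a start among lost minus kept regions was −4.37 percentage points (95% interval of the difference, counting error only, −5.36 to −3.37), and it was lower among the lost on 22 of 23 chromosomes. The share inside genes differed by −1.22 points (−2.59 to 0.15), an interval that includes 0. With all lists held to a −log10 q of at least 10, the share near a start was 23.7%, among a set that kept 767 of the 9446 regions. Lost regions of the other kinds differed in place: 4.27% of the lost open regions with HOXD13-HA and 4.28% of the lost regions that were not open lay near a start, and 75.9% of the latter lay inside genes.

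In A375 cells with the GFP construct, whose K27ac list the selection did not use, 4598 of the lost regions, or 48.7% (47.7 to 49.7), overlapped a K27ac region. The share was 82.0% (81.6 to 82.4) for the kept regions. In the other melanoma lines, K27ac overlapped 12.2% (11.5 to 12.9) of the lost regions in 501mel, 19.8% (19.0 to 20.6) in SKMEL-5 and 16.3% (15.6 to 17.0) in SKMEL-147, against 28.1%, 49.5% and 43.8% of the kept regions. At least 1 of these 3 lines had K27ac at 37.4% (36.4 to 38.4) of the lost and 72.7% (72.3 to 73.2) of the kept regions. Sharing by several lines was rare: 27.9% of the lost regions had K27ac in exactly 1 of the 3 lines, 8.05% in 2 and 1.42% in all 3, where the kept regions had 37.5%, 21.8% and 13.5%. In 2676 lost regions (28.3%) the mark was listed in A375-GFP and in none of the 3 lines, against 19.6% of the kept regions. In 3238 (34.3%) it was listed in none of the 4 lists, against 7.61% of the kept. All 4 lists had the mark at 78 lost regions, or 0.826% (0.662 to 1.03), and at 12.7% of the kept ones. List length bears on the first of these values: the A375-GFP list held 139985 K27ac regions and the other lines 42115 to 58855. With all 4 lists cut to 42115 regions the A375-GFP share of the lost regions was 17.7%, and the share with K27ac in 1 or more of the 3 lines was 33.5%.

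**Figure D2:**
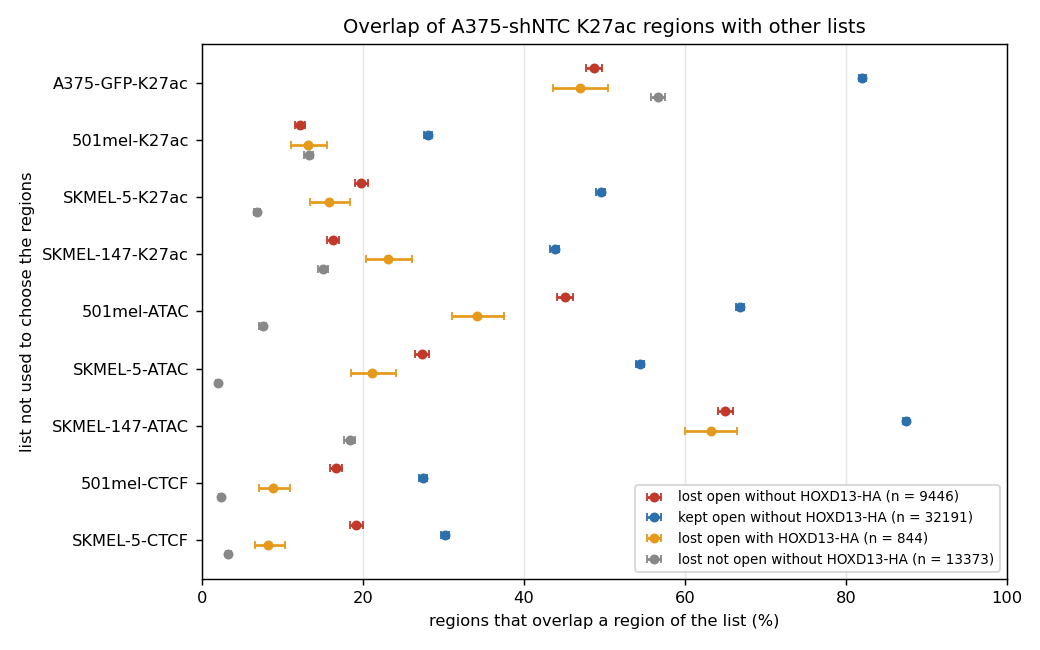
Share of control K27ac regions (horizontal axis, percent) that overlap a region of each list not used to choose them (vertical axis), for 4 groups of regions; points are shares and bars 95% Wilson intervals, which cover counting error only. The lost open regions without HOXD13-HA lie left of the kept open regions in all 9 lists, at 48.7% against 82.0% in A375-GFP K27ac and 16.7% against 27.5% in 501mel CTCF.

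Part of that gap went with strength as measured in the 2 shNTC lists, and part remained within the strength classes. The strongest class was not closely alike, since strength reached 115 among the lost and 2483 among the kept regions. Kept regions were by selection also listed in a hairpin library. They may thus be the stronger ones within a class, which was not tested. At like strength the share with K27ac in A375-GFP, lost minus kept, was −19.2 points (−20.5 to −17.8), compared with −33.4 points before strength was considered. For at least 1 of the 3 other lines it was −20.3 points (−21.7 to −19.0) in place of −35.4. By line it was −4.61 points in 501mel (−5.53 to −3.69), −13.4 points in SKMEL-5 (−14.6 to −12.3) and −16.3 points in SKMEL-147 (−17.5 to −15.2). Each of the 4 K27ac lists had the lower share among the lost regions in 10 of 10 classes. In 501mel the gap was small in the weakest classes. It was 10.4% against 11.7% in class 1 and 12.4% against 12.5% in class 2, with overlapping intervals. The direction was the same on 23 of 23 chromosomes in A375-GFP, SKMEL-5 and SKMEL-147, and on 21 of 23 in 501mel. The 501mel value leaned on the strongest class, which held most kept regions, and was −2.52 points (−3.52 to −1.52) without it. When regions were grouped by width as well as strength, an alternative chosen after the data were seen, the A375-GFP difference was −15.9 points (−17.2 to −14.5). These are 1 library per line, so the gap has no error over samples.

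**Figure D3:**
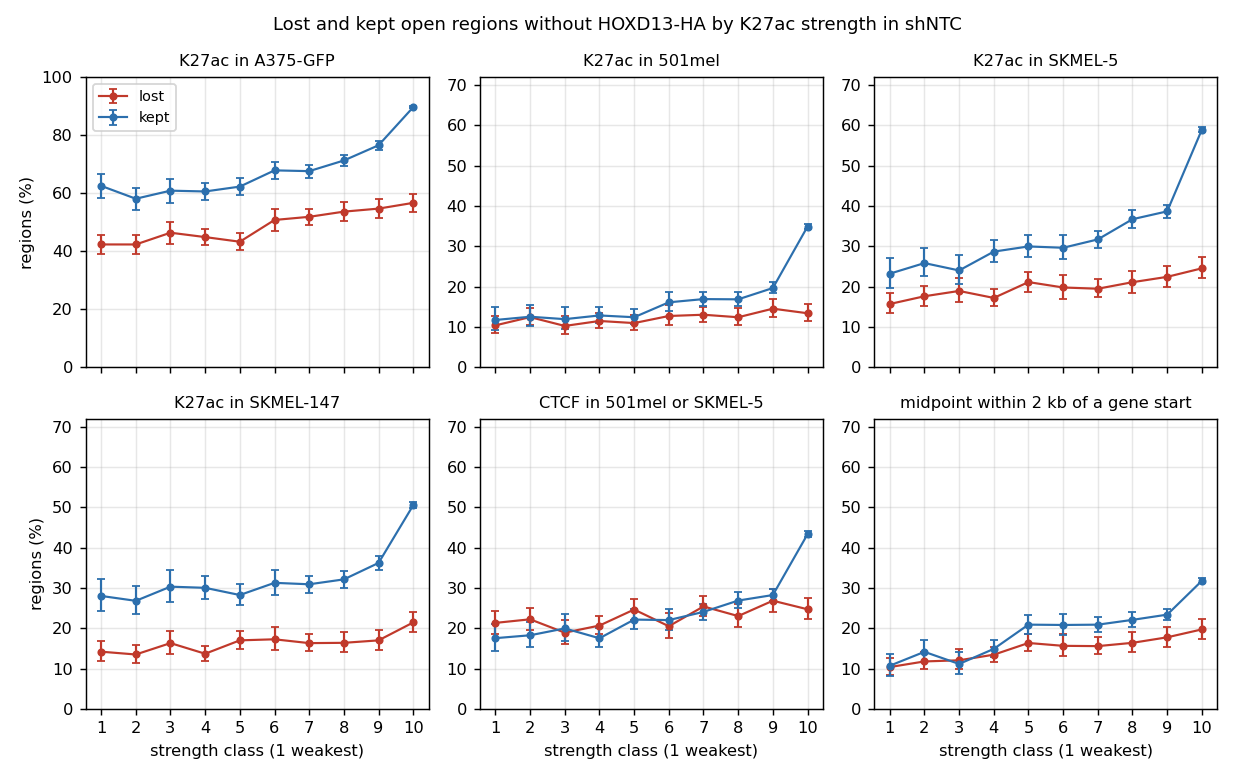
Lost (red) and kept (blue) open regions without HOXD13-HA in 10 classes of control K27ac strength (horizontal axis, 1 is weakest), with the share in percent (vertical axis) that overlaps K27ac in each of 4 libraries, overlaps CTCF, or lies near a gene start; bars are 95% Wilson intervals for counting error. The K27ac shares of the lost regions lie below those of the kept ones in all 10 classes of each of the 4 libraries, whereas the CTCF shares cross.

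Among both lost and kept regions, many were open in another line without the mark there. ATAC regions overlapped 45.1% (44.1 to 46.1) of the lost regions in 501mel and 27.3% (26.4 to 28.2) in SKMEL-5. In SKMEL-147 they overlapped 65.1% (64.1 to 66.0). The kept regions had 66.9%, 54.4% and 87.5% in the same order. At like strength the lost minus kept differences were −7.60, −11.1 and −15.5 points. Among the lost regions open in SKMEL-147, 22.4% (21.4 to 23.5) carried K27ac there, against 49.0% (48.4 to 49.6) of the kept regions open in that line. The same shares were 46.6% and 75.1% in SKMEL-5 and 21.5% and 39.3% in 501mel. Unlike the ATAC differences above, these K27ac shares among open regions were not set at like strength. Where the lost region was not open in the line, K27ac was listed at 9.73% in SKMEL-5 and under 5% in the others, 4.49% in 501mel and 4.82% in SKMEL-147. Lists of the 3 lines differ in length, so shares are set against each other within a line.

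By place, lost regions near a gene start overlapped K27ac in SKMEL-5 at 34.3% (31.9 to 36.8), against 76.7% of the kept regions there, and in SKMEL-147 at 5.63% (4.54 to 6.95), against 30.9%. Inside genes and away from starts, the lost regions had 17.7% in SKMEL-5, against 40.4% of the kept, and 19.2% in SKMEL-147, against 50.5%. In A375-GFP the mark overlapped 56.9% of the lost regions inside genes, 46.3% of those near starts and 40.3% of those between genes. The kept regions had 85.2%, 86.5% and 74.7% in the same order. None of these K27ac shares by place was set at like strength, so the part of strength in the gaps is not known.

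CTCF, mapped in 501mel and SKMEL-5 and not in A375 here, overlapped 16.7% (16.0 to 17.5) and 19.2% (18.4 to 20.0) of the lost regions, and 27.5% and 30.3% of the kept ones. These differences were smaller between regions of like strength, at −0.65 points in 501mel (−1.65 to 0.34) and −0.16 points in SKMEL-5 (−1.21 to 0.88). For CTCF of at least 1 of the 2 lines the difference was −1.14 points (−2.27 to −0.0047), with the lost regions lower in 5 of 10 classes. Lost regions were lower in 5 of 10 classes in 501mel and 4 of 10 in SKMEL-5. Without the strongest class, an alternative chosen after the data were seen, the lost regions were higher by 1.15 points in 501mel (0.07 to 2.23) and 1.70 in SKMEL-5 (0.57 to 2.83). Near gene starts, 36.1% of the lost and 55.2% of the kept regions overlapped CTCF of at least 1 of the 2 lines, but these shares were not set at like strength.

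Lost open regions with HOXD13-HA were the nearest comparison, a set of 844 among 6374 open bound regions (13.2%). At like strength, and given as regions with HOXD13-HA minus regions without it, the share near a start was −10.9 points (−12.5 to −9.39) and the share with CTCF in either line −11.1 points (−13.4 to −8.74). Seen from the other side, the lost regions without HOXD13-HA held more starts and more CTCF. K27ac in SKMEL-147 differed by 6.61 points (3.69 to 9.53), being more frequent with HOXD13-HA, and K27ac in SKMEL-5 by −4.25 points (−6.81 to −1.69). In A375-GFP the difference was −2.14 points (−5.60 to 1.33), so the same-line share was not told apart at this number of regions.

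The region with the strongest control acetylation lay over the end of TMEM156 away from its start (chr4:38966240-38968515). Its fold was 32.5 in shNTC replicate 1, 29.6 in replicate 2, 3.83 in A375-GFP K27ac and 8.05 in A375-GFP ATAC, and of the other lines only SKMEL-147 was open there, at 9.42. The region was thus listed with K27ac in A375-GFP and in none of the 3 other lines, and its A375-GFP fold was just under that list's median of 3.99. A region at SAMD12 had folds of 26.2 and 22.5 in the replicates and 14.0 in A375-GFP, and it was open in all 3 other lines without K27ac in any. The region 11564 bp from IYD, which encodes the enzyme that recovers iodide in the thyroid (chr6:150417534-150419959), had folds of 21.7 and 22.2. It overlapped CTCF in both lines, with folds of 13.2 in 501mel and 15.8 in SKMEL-5, and its K27ac folds were 3.91 in A375-GFP and 3.93 in SKMEL-5.

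Of the other 7 strongest regions, 1 is of uncertain origin. It lay 451 bp from the ribosomal RNA gene RNA45SN3 and over MIR6724-3 (chr21:8387758-8388584), a locus with near-identical copies, where reads cannot be placed to 1 copy; the nearest protein-coding gene, LOC102723475, was 558125 bp away. Its strength of 52.1 went with folds of only 5.97 and 6.21. BEST1, a chloride channel gene of the retinal pigment epithelium, had a region over 1 end of the gene, its midpoint 443 bp from that end, with folds of 17.6 and 15.9 in control and of 15.7 in SKMEL-5, 11.4 in 501mel and 3.35 in A375-GFP. The SKMEL-5 and 501mel values were above the medians of their lists, 5.60 and 4.01, and the A375-GFP value was below its own, 3.99. Regions upstream of SNRPB2 (a U2 snRNP protein) and inside LIPF (gastric lipase) had folds of 16.2 and 16.1, and of 17.0 and 15.5, and neither had K27ac in A375-GFP or any other line. The RUBCNL region, in a gene of autophagosome maturation, had folds of 16.3 and 15.2 and K27ac in SKMEL-147 alone, at 5.41. GATA5, a cardiac and gut transcription factor gene, had a region 25368 bp away with folds of 14.9 and 15.1, and folds of 2.75 in A375-GFP and 3.96 in SKMEL-147. All 10 strongest regions remained in the set under 7 alternatives, and 9 of them with lists held to a −log10 q of at least 10. With 1 hairpin alone every lost region remains by construction. With 1 shNTC replicate left out, 9115 and 9191 of all 9446 remained, so little is read from these alternatives.

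**Figure D4:**
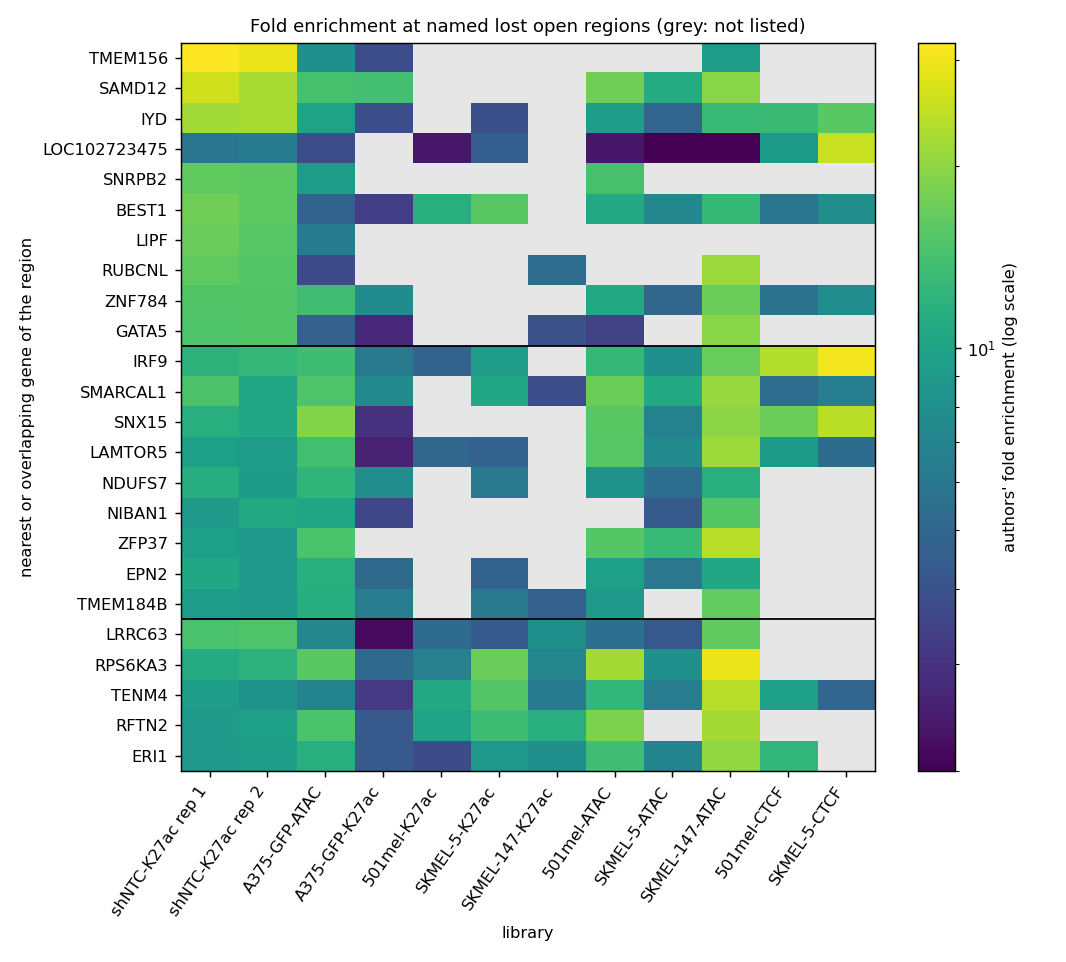
Authors' fold enrichment (colour, log scale from 2 to 32, with higher values in the top colour) at named lost open regions (rows) in 12 libraries (columns); grey marks a region that is not in the list. The upper block holds the 10 strongest regions, the middle block 9 further regions that cover a start in the promoter table and the lower block 5 with K27ac in A375-GFP and all 3 other lines; colours compare within a column. The 501mel, SKMEL-5 and SKMEL-147 K27ac columns are mostly grey in the upper block.

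Among the 10 strongest regions covering a start given in the promoter table, which leaves out BEST1, ZNF784 (chr19:55624313-55624602) had folds of 15.1 and 15.1 in control and 7.60 in A375-GFP, and it was open in all 3 other lines with no K27ac in them. IRF9 (chr14:24161255-24162319) had control folds of 12.0 and 12.7, K27ac of 6.13 in A375-GFP, 4.84 in 501mel and 9.17 in SKMEL-5, and CTCF folds of 23.3 and 30.3 in 501mel and SKMEL-5. A hairpin K27ac region lay 251 bp from it, so part of this promoter's neighbourhood kept the mark. SMARCAL1 had control folds of 14.8 and 10.3, with 7.49 in A375-GFP and 10.5 in SKMEL-5. SNX15 had 11.3 and 10.5 in control and 2.98 in A375-GFP, below that list's median of 3.99, with CTCF folds of 17.1 and 24.1. LAMTOR5, a subunit of the Ragulator complex that recruits mTORC1 to lysosomes, had 9.69 and 9.23 in control and K27ac in 501mel (5.02) and SKMEL-5 (4.80). NDUFS7, a subunit of respiratory complex I, had 11.2 and 9.09 in control, 7.82 in A375-GFP and 6.11 in SKMEL-5. The starts of NIBAN1, the zinc finger gene ZFP37, the endocytic adaptor gene EPN2 and TMEM184B completed this group, with control folds from 8.83 to 10.7. ZFP37 lacked K27ac in A375-GFP and in the 3 lines while open in all 3. None of the 10 starts but SMARCAL1 and TMEM184B overlapped K27ac in SKMEL-147, where 10 of 10 were open.

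Among the lost regions with K27ac in all 4 further lists, the strongest lay 18260 bp downstream of LRRC63 (folds of 14.4 and 15.0 in control, 2.17 in A375-GFP and 7.96 in SKMEL-147). A region 193877 bp upstream of RPS6KA3, which encodes the MAPK-activated kinase RSK2, had 11.1 and 11.9 in control, 5.13 in A375-GFP and 16.9 in SKMEL-5. One inside TENM4, a teneurin of neural wiring, had 9.45 and 8.34 in control and 15.3 in SKMEL-5. Regions inside RFTN2, a lipid raft protein gene, and ERI1, an exonuclease of histone mRNA, followed, and in both the fold in A375-GFP was 4.32 and 4.34. Among those with K27ac in none of the 4 lists, SNRPB2 and LIPF led. The region 290 bp upstream of SESN2, a stress-induced inhibitor of mTORC1, had 14.7 and 12.7 in control and a hairpin region 322 bp away. The region inside SPOP, a substrate adaptor of the cullin-3 ubiquitin ligase, had 12.1 and 12.6 and a hairpin region 214 bp away. For DUSP10, a phosphatase of p38 and JNK, the region lay 280871 bp downstream, with 13.8 and 12.0 in control.

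Lost open regions lay inside or within 2 kb of 4666 of 19974 protein-coding genes (23.4%), or of 35.2% of the 13251 genes with an open unbound region. Of the 4666 genes 3444 (73.8%) had exactly 1, and 49 had 5 or more. Genes with a lost region were long, with a median of 59.1 kb against 26.3 kb for genes with an open region and no lost one, and a longer gene holds more regions. At genes, here and below, an open region means an open unbound K27ac region of both shNTC lists. Regions with HOXD13-HA and open regions without control K27ac are left out of these counts, and lost refers to the K27ac call. NAV2, a neuron navigator gene, had the most, 9 of its 19 open regions (47.4%). USP34, a deubiquitinase gene, lost 7 of 10. TCF4, a basic helix-loop-helix factor gene, lost 7 of 12 (58.3%) and KDM4C, a histone H3 lysine 9 demethylase gene, 6 of 11 (54.5%). PRKCA, encoding protein kinase C alpha, lost 7 of 16, the latent TGF-beta binding protein gene LTBP1 7 of 17, the nucleoporin gene RANBP2 7 of 20, the endocytic adaptor gene SH3KBP1 7 of 22 and the exchange factor gene MCF2L2 6 of 9. SPATA13, CDK14, SND1, GPC6, HDAC9 and ARHGAP26 had 6 each, of 12 to 18 open regions. Among the 255 genes with at least 10 open regions the median share lost was 18.2%. CAPZB and SLC14A2 lost 5 of 10 each, and ADGRV1, MCC and PCDH9 lost 5 of 11 (45.5%). At the other end, ZMIZ1 lost 0 of 19, LHFPL2 0 of 17, KIRREL3 0 of 16, and ARHGEF28 and TNS3 0 of 15. A gene near 1 end of this order was chosen for its share, which is thus a description.

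Genes with many lost regions differed in where these carried the mark. The 9 NAV2 regions had strengths from 2.25 to 14.0. Of these, 6 had K27ac in SKMEL-147, 4 in 501mel, 1 in SKMEL-5 and 1 in A375-GFP, and 8 were open in SKMEL-147. The 7 TCF4 regions had K27ac in A375-GFP in 0 cases and in SKMEL-5 and SKMEL-147 in 1 case each. The 7 SH3KBP1 regions had it in A375-GFP in 7 of 7 cases and in SKMEL-147 in none. At USP34 the mark was listed at 5 of 7 regions in A375-GFP and 1 of 7 in SKMEL-147, and at MCF2L2 at 4 and 5 of 6. Adjacent regions of a gene can overlap 1 broad region of another list and are not independent.

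Of the 25 angiogenesis ligands and receptors, 22 had an open region and 8 of these (36.4%) had a lost one, near the 35.2% of all genes with an open region. A gene with more open regions has more chances of a lost one, so the counts of this and the other lists are descriptions. Among the ligands, VEGFC, which drives growth of lymphatic vessels, lost 3 of 4 open regions. The strongest of them (chr4:176768668-176770229), 23473 bp into the gene from its start, had folds of 5.27 and 5.33 in control, 3.04 in A375-GFP, 3.93 in SKMEL-5 and 7.21 in SKMEL-147. FGF2, encoding basic fibroblast growth factor, also lost 3 of 4. Its start region (chr4:122826632-122828012) had 5.27 and 4.91 in control and 8.29 in A375-GFP. No other line had K27ac there, SKMEL-147 was open with an ATAC fold of 10.5, and a hairpin region lay 3212 bp away. ANGPT1, a ligand of the endothelial receptor TIE2, lost 1 of 3 (5.63 and 5.60 in control, 5.40 in A375-GFP). EPAS1, which encodes the hypoxia-inducible factor HIF-2alpha, lost 2 of 4. The stronger had control folds of 5.55 and 4.77, and K27ac was listed there in A375-GFP, SKMEL-5 and SKMEL-147. The other genes of the list with a lost region were JAG1, NRP1, THBS2 and TIE1.

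Class 3 semaphorins and plexins guide vessels and axons. Of 11 genes with an open region, 5 (45.5%) had a lost one, against 35.2% of all genes with an open region. SEMA3D lost all 3 of its open unbound K27ac regions. The strongest (chr7:85025211-85026147) had folds of 11.1 and 10.6 in control and 3.26 in A375-GFP, was listed in no other line, open or acetylated, and had its nearest hairpin region 76358 bp away. The region 145 bp upstream of PLXNA1, a semaphorin receptor gene, had 9.14 and 7.14 in control, 4.99 in A375-GFP and 4.80 in SKMEL-5. At SEMA3A, 2 of 8 open regions were lost, and the stronger had a hairpin region 239 bp away. The region assigned to PLXNA3 lay inside the neighbouring gene LAGE3. PLXNA2 was the fifth gene.

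In the adenosine pathway, which makes and senses an immunosuppressive nucleoside, 4 of 13 genes with an open region (30.8%) had a lost one. The share over all genes was 35.2%. ADK, adenosine kinase, lost 2 of 10 (strongest 6.08 and 8.67). ADORA2B, a low-affinity adenosine receptor gene, lost 2 of 5. The stronger, 1978 bp from the gene, had control folds of 5.52 and 4.99 and 26.2 in SKMEL-5, and it lay 97385 bp from the start that the promoter table gives this gene. DPP4, the adenosine deaminase-binding protein CD26, had 4.03 and 4.77 in control, 18.8 in SKMEL-5 and 7.26 in 501mel. Neither of these regions was listed in A375-GFP K27ac or SKMEL-147 K27ac. SLC28A3, a nucleoside transporter gene, lost 2 of 5.

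Of 12 immune checkpoint and suppressive cytokine genes with an open region, 5 (41.7%) had a lost one, against 35.2% of all genes. CD274, which encodes the checkpoint ligand PD-L1, had 1 open unbound K27ac region and lost it. It lay 184 bp upstream of the gene (chr9:5449661-5450357), with folds of 8.17 and 7.28 in control, and K27ac was listed there in SKMEL-147, at 8.14, and not in A375-GFP. A hairpin K27ac region lay 2185 bp away. NECTIN2, a ligand of TIGIT, lost 2 of 4, the stronger with 9.97 and 8.40 in control and with CTCF folds of 31.8 and 68.5. CD47, the signal against phagocytosis, lost 1 of 2 (4.03 and 4.49), and CD276, the checkpoint molecule B7-H3, 2 of 4 (5.14 and 4.07). TGFB3 was the fifth.

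Chemokines and inflammatory cytokines had 10 genes with an open region and 5 (50%) with a lost one, against 35.2% over all genes. CXCL3 and CXCL8, which attract neutrophils, and IL1A, the cytokine interleukin-1 alpha, each had 1 open unbound K27ac region and lost it. The CXCL3 region covered the start, with folds of 8.86 and 7.00 in control, 4.20 in A375-GFP, 10.0 in SKMEL-5 and 3.60 in SKMEL-147. CXCL8 had 7.34 and 6.58 in control, and IL1A 5.83 and 6.72, and both had the mark in A375-GFP (3.48 and 3.66) and SKMEL-147 (4.33 in each). CX3CL1 lost 2 of 3, and CSF1 had a lost region as well. The nearest hairpin region was more than 10 kb away at CXCL3, CXCL8 and IL1A.

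Of 15 melanocytic genes with an open region, 4 (26.7%) had a lost one, against 35.2% of all genes. MITF, the master regulator of melanocytes, lost 2 of 12 open regions. One of them (chr3:69922051-69923185) had control folds of 4.59 and 5.33 and 8.12 in A375-GFP, and reached 107 in SKMEL-5 and 11.7 in 501mel. The median region had 4.86 and 4.91 in the shNTC lists, 5.60 in SKMEL-5 and 4.01 in 501mel. The MITF region was thus near the middle of the A375 control lists. It overlapped a SKMEL-5 region far above the middle of that list, whose peak may lie outside it. No SKMEL-147 K27ac region overlapped it. RAB27A and RAB38, which move and load melanosomes, lost 1 of 5 and 1 of 2. Tyrosinase (TYR), the rate-limiting enzyme of melanin synthesis, lost both of its 2 open unbound K27ac regions, each under a strength of 3. K27ac was listed at the genes in both shNTC lists for 16 of 20 melanocytic genes, with DCT, KIT, SLC45A2 and TYRP1 lacking it, and for 21 of 24 undifferentiated and invasive genes. It was also listed at 5 of 11 keratinocyte, 7 of 11 T cell, 9 of 12 fibroblast and 11 of 12 endothelial genes, so a listed region does not mark a cell type here.

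Undifferentiated and invasive genes had a lost region at 9 of 21 genes with an open one (42.9%), against 35.2% over all genes. CDH2, N-cadherin, lost 1 of 8 (6.52 and 6.58 in control, 2.79 in A375-GFP), TEAD1, a partner of YAP, 2 of 7, and WNT5A 1 of 3 (8.17 and 5.33). AXL, a receptor tyrosine kinase gene of therapy-resistant melanoma, lost 1 of 3, with 4.86 and 5.21 in control and 4.28 in A375-GFP. EGFR, FOSL2, NGFR and SOX2 also had one. Of 19 matrix genes with an open region, 7 (36.8%) had a lost one. ITGA2, a collagen-binding integrin subunit, lost 4 of 6, and all 4 had K27ac in SKMEL-147, with folds from 3.60 to 6.27, while 3 had it in A375-GFP and none in 501mel or SKMEL-5. COL4A1 and COL4A2, the basement membrane collagen chains, lost 2 of 5 and 2 of 8, and all 4 regions had K27ac in A375-GFP and in no other line. TIMP3, an inhibitor of matrix proteases, lost 2 of 3. MAPK feedback genes had a lost region at 4 of 17 (23.5%): SPRED1, SPRED2, DUSP4 and CCND1. The CCND1 region, in the cyclin D1 gene, had 4.72 and 4.77 in control and 17.5 in A375-GFP, where the median region had 3.99.

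HOX cluster genes had lost open regions at 4 of 15 genes with an open one (26.7%), against 35.2% over all genes. HOXD9, a neighbour of HOXD13, had 1 open unbound K27ac region and lost it (chr2:176122181-176123360). Its folds were 6.10 and 5.19 in control and 4.75 in A375-GFP, and it was open but not acetylated in SKMEL-147. HOXD1 also lost its 1 open unbound K27ac region, with 4.86 and 4.77 in control, 3.47 in A375-GFP and 6.99 in SKMEL-5. HOXC10 lost 1 of 2, next to a hairpin region 304 bp away, and HOXB3 1 of 2. Limb development genes had a lost region at 10 of 17 (58.8%), against the same 35.2%. They held 70 open regions, of which 15 were lost, and 22.7% of all open unbound regions were lost. Genes with a lost region included LMX1B, which sets the dorsal side of the limb, RUNX2, of bone, and CHST11. BMP7, EPHA7, GLI2, GLI3, MEIS1 and MEIS2 also had one. The lost regions of LMX1B (5.41 and 5.19) and CHST11 had no K27ac in A375-GFP or in any other line. Housekeeping genes had a lost region at 3 of 13, with PGK1, PPIA and B2M. Their share of 23.1% was the lowest of the 16 lists but close to the 23.5% of MAPK feedback genes. Their median length was 6.44 kb, and short genes hold fewer regions. The B2M region lay inside the neighbouring gene PATL2, and those of PGK1 and B2M lay beside hairpin regions 484 and 422 bp away. For genes of other skin or vessel cells the counts were 2 of 4 (keratinocyte, DSG3 and KRT16), 2 of 6 (T cell, CD3E and CD4, the latter with a region over the neighbouring gene GPR162), 4 of 7 (fibroblast, ACTA2, DCN, FAP and THY1) and 4 of 8 (endothelial, ENG, VWF, TIE1 and ERG).

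**Figure D5:**
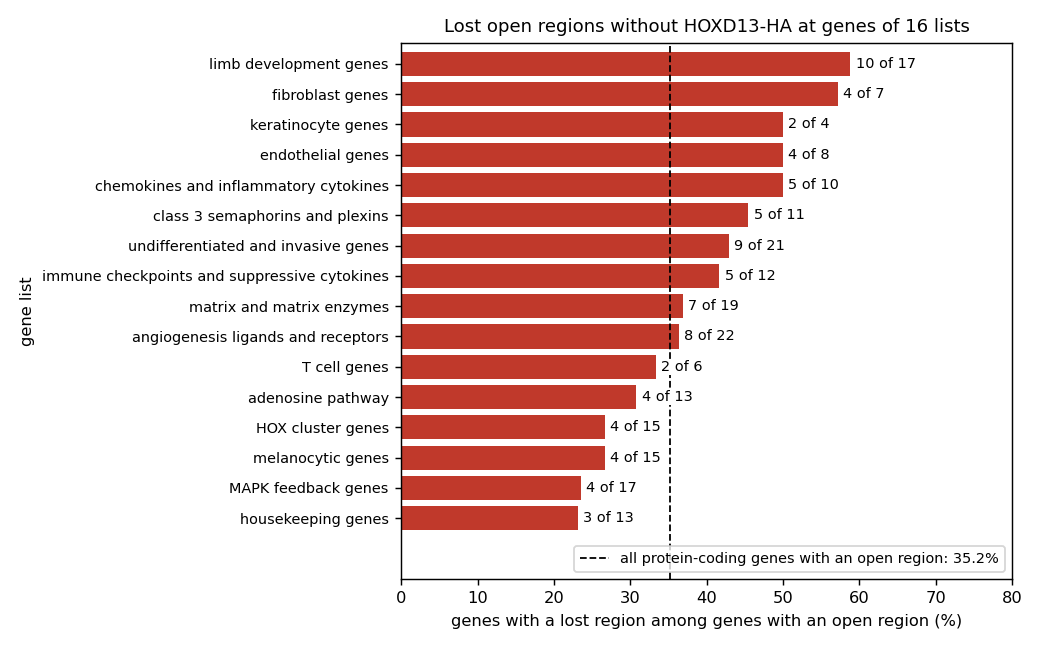
Share of genes with a lost open region without HOXD13-HA (horizontal axis, percent) among the genes of each of 16 lists (vertical axis) that had an open control K27ac region inside or within 2 kb; the counts are beside the bars and the dashed line is the 35.2% of all protein-coding genes with an open region. Lists hold 4 to 22 such genes, and the shares run from 3 of 13 (housekeeping) to 10 of 17 (limb development).

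Some lost regions followed each other along a chromosome with no kept region between them. The control regions formed 13462 such runs, 7971 of them of 1 region, and 19 runs held 5 or more lost open unbound regions. The runs and the genes in them were chosen after their values were seen. The longest by that count spanned SDHAF2 to DAGLA (chr11:61433676-61688902) and held 7. Their strengths ran from 1.92 to 8.14, and apart from SDHAF2 none had K27ac in any further list. A run beside VEGFA, the main vascular growth factor gene (chr6:43775221-43925041), held 5, all of them beyond the gene by 11788 to 136830 bp. Their control folds were 4.72 and 4.77, 4.18 and 3.83, 5.41 and 4.35, 4.31 and 5.19, and 6.10 and 6.44 in replicates 1 and 2. All 5 had K27ac in A375-GFP, from 3.13 to 6.17, and 3 had it in SKMEL-147, from 3.21 to 4.33, with none in 501mel or SKMEL-5. The first 2 overlapped the same A375-GFP K27ac region and the same ATAC region. A run on chromosome 19 (chr19:43951276-44072770) held 6 regions, each at or near the start of 1 zinc finger gene of a cluster, ZNF221, ZNF155, ZNF230, ZNF222, ZNF223 and ZNF284. They had control folds from 3.79 to 11.1 and were open in 501mel, from 19.7 to 23.7, and in SKMEL-147, from 27.02 to 36.4. None had K27ac in A375-GFP, and 1 of the 6, at ZNF222, had it in SKMEL-5. HOXD13-HA was 182167 bp or more from each of them. These genes are related copies, so reads may be shared between them.

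Zinc finger names belonged to 13 of the 253 gene starts inside lost open regions (5.14%, 3.03 to 8.59), of which 12 begin with ZNF and the other is ZFP37. From the chromosome 19 cluster they include ZNF222, ZNF230 and ZNF284, and not ZNF221, ZNF155 or ZNF223. The share was 4.62% of the 5004 starts in kept regions, where ZNF, ZFP, ZSCAN and ZKSCAN names were counted. The promoters of the 253 genes were compared over 300 bases, 250 before to 50 after the start, with those in kept regions, with the 520 starts in kept regions whose strength was under the 90th percentile of the lost ones, and with all 15812 in the RefSeq table. The median number of CpG was 24 in lost, 27 in kept, 26 in weak kept regions and 22 in all. Fewer than 10 CpG were found in 18.2% (13.9 to 23.4) of lost, 8.03% (7.31 to 8.82) of kept and 12.7% (10.1 to 15.8) of weak kept starts, and in 27.02% of all. CCGGAAG, recognised by ETS factors, was in 12.3% (8.77 to 16.9) of lost, 24.4% (23.2 to 25.6) of kept, 19.6% (16.4 to 23.2) of weak kept and 14.2% of all promoters, counting both strands. The intervals of lost and weak kept starts overlap slightly. CAATAAA, of posterior HOX proteins, was in 2 lost promoters (0.791%), 2.02% of kept and 2.83% of all, and CTCGTAAA, another such sequence, in 0 of 253 and 0.0885% of all. TGANTCA, of AP-1, was in 6.32%, 4.96% and 5.76% of lost, kept and all promoters. GGAATG, of TEAD, was in 13.0%, 10.7% and 11.7%, and TCATGTG, of MITF, in 1.98%, 1.48% and 2.26%. A match describes the letters of this window and is no evidence of binding.

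Lost open regions were on all 22 autosomes and X. The share of open unbound regions lost ran from 19.3% on chromosome 17 to 26.0% on X, around the 22.7% of the whole set. Given the strength classes of each chromosome's regions, the difference between the observed and the computed share lay between −2.56 points on chromosome 10 and 1.98 points on chromosome 9. The spread between chromosomes was thus small once strength was considered.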

How the data were processed

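K27ac, ATAC, CTCF and HOXD13-HA region lists of 15 libraries were used. The other 6 of 21 samples (5 IgG libraries and A375-GFP-HA) were not analysed here. Per the submitters' processing notes, the authors used Trim Galore, Bowtie2, SAMtools, MACS2 and deepTools with hg38. Versions, settings and control libraries are not given in the sources used here. Each deposited list gives a score, a fold enrichment (a ratio over the authors' background), a −log10 p-value and a −log10 q-value. The lowest −log10 q in the lists was 1.30 to 1.34. Regions on autosomes and X were used. Some lists, such as shNTC (1070 and 1226), also held regions on other sequences and A375-GFP K27ac held 0, so libraries were not all handled alike; 14 lost open regions lay in the MHC (chromosome 6, 28 to 34 Mb), where this can matter.

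The 2 shNTC lists were merged, keeping merged regions present in both, and compared with other lists at 1 bp overlap (Python 3.11.15, pandas 2.3.3, numpy 2.4.6, scipy 1.17.1). Code was tested on simulated data. With 1 library per condition beyond shNTC, no test over samples was made. Shares have 95% Wilson intervals, and differences at like strength use 10 strength classes. Regions are not replicates. Nothing says whether the shNTC libraries came from separate cultures. Genes were the 19974 protein-coding genes of RefSeq (GRCh38.p14). A start came from the promoter table for 15812, and otherwise both gene ends were used, so exons and introns were not told apart. Markers and genes came from 16 lists. The members and lists were chosen with earlier results of these data known. Named were the 10 strongest regions, the 10 strongest over a start in that table, the 5 strongest with K27ac in all 4 and in none of the 4 further lists, the 15 genes with most lost regions, the 10 highest and 5 lowest shares lost among genes with 10 or more open regions, and up to 4 genes per list; further genes of a list with a lost region are named without values, and some are not reported here. Alternatives were a −log10 q of at least 10, lists of equal length, 50% overlap, 1 hairpin alone, 1 shNTC replicate left out, joining within 1 kb, and starts within 1 or 5 kb.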

Additional observations from a re-analysis of the deposited data

How the results depend on the processing

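The number of lost open regions was 9446. It was 3716 of 28974 open unbound regions with the shNTC and hairpin K27ac lists cut to equal length and 16914 with shH2 alone, and ran from 11650 to 12999 with 1 shNTC replicate left out; in the other 4 alternatives it stayed within 1.5 times. Of the 9446 regions, 2991 remained with cut lists and 767 with the −log10 q limit of 10. Shares are given next in the order −log10 q limit of 10, cut lists, shH2 alone, shH3 alone. Near a start (15.1%) they were 23.7%, 18.7%, 21.9% and 13.1%, with 10.8% for regions joined within 1 kb, 12.5% and 19.3% for starts within 1 and 5 kb, and 15.2 to 15.9% with 1 replicate left out. With K27ac in A375-GFP (48.7%) they were 38.7%, 58.1%, 56.3% and 52.9%, with 46.8% at 50% overlap, 50.4% for joined regions, 17.7% with the 4 further lists cut to 42115 regions, and 42.4 to 44.7% with 1 replicate left out. With K27ac in another line (37.4%) they were 31.1%, 43.2%, 44.5% and 41.8%, with 32.9% at 50% overlap, 33.5% with the further lists cut, and 34.3 to 35.0% with 1 replicate left out. The difference from kept regions at like strength (−20.3 points) was −17.3 with the −log10 q limit of 10, −24.3 with cut lists, −17.3 with shH3 alone and −18.5 without the strongest class, and ran from −21.0 to −20.6 with 1 replicate left out. It was −19.6 points at like strength and width. The last class and the width grouping were chosen after the data were seen. Fewer or longer lists change what counts as lost by construction, and beyond that the cause was not tested. No paired analysis was possible because the hairpin libraries carry no replicate number and each was made once. Library depth is unknown and limits every absence from a list.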

Other observations

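Among the lost regions with K27ac in exactly 1 of the 3 other lines, the line differed. The mark was in SKMEL-147 alone at 12.1% (11.4 to 12.7) of the 9446 lost regions, in SKMEL-5 alone at 11.2% (10.6 to 11.9) and in 501mel alone at 4.63% (4.22 to 5.07). It was in 501mel and SKMEL-5 together, without SKMEL-147, at 5.24% (4.81 to 5.71). The kept open regions had 18.7% with SKMEL-147 alone, 16.3% with SKMEL-5 alone, 2.504% with 501mel alone and 10.1% with that pair. Of these 4 classes, 501mel alone was the one in which the lost regions had the higher share. This was not particular to them. The 501mel alone share was 7.77% among lost regions that were not open and 3.91% among lost open regions with HOXD13-HA. None of these shares was set at like strength. These lists differ in length, from 42115 to 58855 regions, and the part of length in these shares was not tested.

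All open unbound regions were lost at 1026 genes, most of which had few, and 19 genes had 3 or more. They are named after their values were seen. B3GNT5, a glycosyltransferase gene, HSPA12A, of the HSP70 family, STRBP, which encodes an RNA-binding protein of sperm formation, and TBC1D10A, a Rab GTPase-activating protein gene, lost 4 of 4. CYLD, the deubiquitinase that restrains NF-kappaB signalling, lost 3 of 3, as did PAK4, a p21-activated kinase gene, SLC29A3, a nucleoside transporter gene of lysosomes, MGST2, a glutathione transferase gene, and TRPM6, a magnesium channel gene. The B3GNT5 regions lay within MCF2L2 as well, so 1 set of regions stands behind both gene counts.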
